A study of Sus scrofa with 8 samples.

Results

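The genes described here belong to antigen presentation by the major histocompatibility complex (MHC), which is called the swine leukocyte antigen (SLA) complex in the pig. They were given by symbol: B2M, TAP1, CD74, PSMB8, NLRC5 and SLA-DQB1, and they were picked because B2M is higher in endothelial cells at the later stages. Of these 6 genes, 5 are named in the matrices, among 21301 rows, and CD74 is not. The reference name table pairs an unnamed row with CD74, the class II invariant chain, but that row was high in every class, with 963 to 2790 CPM (counts-per-million of all UMIs summed over the cells of a class in a library) in erythroid-like cells and 2666 and 2481 CPM in macrophage-like cells, and the genes most like it were NUDT3 (r = 0.96) and ribosomal protein genes such as RPL19 (r = 0.94), so it was not read as CD74. B2M in endothelial-like cells, late against early, is therefore the measure that chose the list. It and every other late against early comparison within endothelial-like cells are given below as a description, with no test.

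Somites of embryonic day 16 (E16), E18 and E21 and myotomes of E28 were profiled by droplet single-cell RNA sequencing in pigs. ZZ embryos were Tibetan pigs, and DZ embryos came from the cross of Duroc and Tibetan pigs. A library pooled 5 embryos carried by a single sow, and each of the 4 stages of each breed was sequenced once, which makes 8 libraries. E16 and E18 are called early here (4 libraries) and E21 and E28 late (4 libraries), so replicates within a period differ in stage and breed, and the E28 libraries also differ in tissue.

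MHC class I molecules stand on nearly all nucleated cells and show peptides from inside the cell to CD8 T cells. The peptides are cut by the proteasome, in which interferon can exchange the standard catalytic subunits for those of the immunoproteasome, and the TAP transporter carries them into the endoplasmic reticulum, where they are loaded onto a heavy chain paired with beta-2-microglobulin. Class II molecules show peptides from endocytosed proteins to CD4 T cells, and are best known from macrophages, dendritic cells and B cells, although pig endothelium can carry them too. The regulators NLRC5 and CIITA switch on class I and class II genes respectively.

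B2M encodes beta-2-microglobulin, the light chain shared by all class I molecules. In the RefSeq annotation of Sscrofa11.1, B2M has a pair of copies on the minus strand of chromosome 1, chr1:126837721-126844043 and chr1:126865767-126878501, whose coding sequences are identical over 357 of 357 bases. UMIs of one copy can therefore not be told from those of the other by their coding bases, and the B2M row is uncertain in this respect. TAP1 (chr7:25062772-25071989), a subunit of the peptide transporter, PSMB8 (chr7:25058456-25061666), a catalytic subunit of the immunoproteasome, and SLA-DQB1 (chr7:24969034-24977238), the beta chain of the class II molecule DQ, all lie on the minus strand of chromosome 7, within the SLA class II region. NLRC5 lies on the plus strand of chromosome 6 (chr6:18933179-19036288). SLA-DQB1 belongs to a family of similar and polymorphic genes, so its counts are uncertain as well.

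The promoter windows of the 4 members with enough UMIs to describe are shown because these genes are compared below as a group that interferon is known to act on. Each window runs from 250 bases before the annotated RefSeq start to 50 bases from it, 5' to 3' on the strand of the gene in Sscrofa11.1, at chr1:126843994-126844293 for B2M (the first copy), chr7:25071940-25072239 for TAP1, chr7:25061617-25061916 for PSMB8 and chr7:24977189-24977488 for SLA-DQB1. Capitals mark matches, on either strand, to an interferon-stimulated response element (GAAANNGAAA), a gamma-activated site (TTCNNNGAA), a CCAAT box (CCAAT) or the core of a cyclic AMP response element (TGACG).

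B2M: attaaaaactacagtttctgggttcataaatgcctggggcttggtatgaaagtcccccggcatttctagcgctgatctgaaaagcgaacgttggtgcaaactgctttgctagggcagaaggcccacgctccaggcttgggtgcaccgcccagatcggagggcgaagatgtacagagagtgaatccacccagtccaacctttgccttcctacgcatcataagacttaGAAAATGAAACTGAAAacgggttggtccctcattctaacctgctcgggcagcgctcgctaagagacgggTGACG

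TAP1: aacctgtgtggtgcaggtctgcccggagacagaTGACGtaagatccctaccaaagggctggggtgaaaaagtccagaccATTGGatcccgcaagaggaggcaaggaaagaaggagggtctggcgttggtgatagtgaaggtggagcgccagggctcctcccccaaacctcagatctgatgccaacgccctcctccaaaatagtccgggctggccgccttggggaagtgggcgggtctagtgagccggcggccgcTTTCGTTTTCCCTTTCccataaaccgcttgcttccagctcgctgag

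PSMB8: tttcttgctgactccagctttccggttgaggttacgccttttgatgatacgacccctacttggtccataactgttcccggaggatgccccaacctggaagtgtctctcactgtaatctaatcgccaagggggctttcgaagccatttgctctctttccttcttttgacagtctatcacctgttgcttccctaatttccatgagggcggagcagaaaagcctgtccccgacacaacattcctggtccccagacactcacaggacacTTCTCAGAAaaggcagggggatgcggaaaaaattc

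SLA-DQB1: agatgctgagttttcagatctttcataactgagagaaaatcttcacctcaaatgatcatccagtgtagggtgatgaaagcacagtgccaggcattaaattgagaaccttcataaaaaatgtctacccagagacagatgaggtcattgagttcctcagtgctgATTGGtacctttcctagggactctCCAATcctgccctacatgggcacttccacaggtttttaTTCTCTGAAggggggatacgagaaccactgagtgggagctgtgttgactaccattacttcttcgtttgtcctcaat

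B2M holds 2 interferon-stimulated response element matches that overlap and begin at positions -24 and -18 from its start, and TAP1 holds 2 that overlap on the opposite strand, at positions 5 and 11. The window at the annotated start of the second B2M copy holds a CCAAT box at position 23 and none of the other 3 motifs. A different stretch, which lies to the coding start of the second copy as the first window lies to its own, has 238 of 300 bases identical to the first window. That stretch was not searched for motifs. The B2M row does not tell which copy its UMIs came from. The response element is found in 3.58% of 19551 promoter windows of the same length. The TAP1 window overlaps that of PSMB9, another immunoproteasome subunit that is transcribed in the other direction, and the response element matches of TAP1 are the same bases as those of PSMB9. A gamma-activated site match stands at position 16 of PSMB8 and at position -26 of SLA-DQB1, against 7.10% of all windows. SLA-DQB1 also has CCAAT boxes at positions -88 (opposite strand) and -64, and TAP1 has one at -171 (opposite strand), a motif of 35.4% of the windows. The cyclic AMP element core, in 24.3% of the windows, was met in B2M at position 46 and in TAP1 at -217. These matches describe the letters in the windows and were not tested against expression.

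Depth separated the periods, with 61541421 to 71091640 UMIs in the early libraries and 50110370 to 55815869 UMIs in the late ones. Cells were put into 12 classes by gates of 6 marker genes each, with UMIs of at least 2 gate genes of the class and at least 2 more than of any other class, and the names end in -like since they rest on these markers. Of 74147 cells, 30587 were gated and 1855 of these were endothelial-like. The filters kept 5436 of 10373 barcodes in E16-ZZ, against 9197 to 10956 of 10823 to 12335 in the other libraries. Of the 90688 barcodes, 1001 occurred in 2 or more libraries, between 23 and 49 for a pair of libraries. All 10 endothelial check genes that the gate did not use were over 2 times higher in endothelial-like cells than in the other classes, as were 8 of 9 macrophage check genes in macrophage-like cells, LYZ being the exception. The same held for 2 of 6 check genes in paraxial mesoderm-like and 5 of 8 in neural progenitor-like cells, so these names rest on their gate genes more than on other markers, and in the 8 further classes for all check genes or all but 1.

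In endothelial-like cells, B2M was at 61.7 CPM at E16 and 57.7 CPM at E18 in ZZ, and at 68.9 and 74.3 CPM in DZ. In the late libraries it was at 526 CPM (E21) and 890 CPM (E28) in ZZ and at 816 CPM (E21) and 615 CPM (E28) in DZ. Further series of 4 values per period are in order of stage, ZZ before DZ. All 4 late libraries thus lay above all 4 early ones, with means of 712 ± 170 CPM and 65.7 ± 7.38 CPM (SD, n = 4 each), a ratio of 10.8. Among the 8928 genes that passed the filter in this class, 17.5% were higher in the late libraries without overlap and 10.2% were lower, and since B2M was chosen on this contrast, nothing is read from its place among them.

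**Figure D1:**
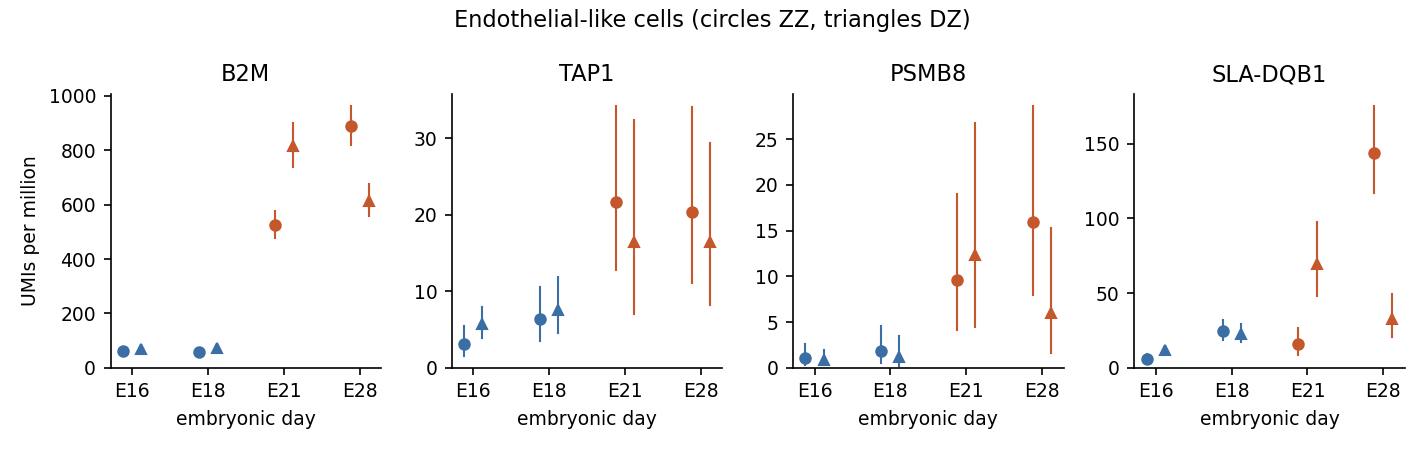
Levels of B2M, TAP1, PSMB8 and SLA-DQB1 in endothelial-like cells, in CPM (linear axes from 0), by embryonic day, for ZZ (circles) and DZ (triangles) libraries. Bars are 95% Poisson intervals, which cover counting error only. B2M, TAP1 and PSMB8 lie higher in all E21 and E28 libraries (526 to 890 CPM for B2M) than in all E16 and E18 libraries (57.7 to 74.3 CPM), and SLA-DQB1 overlaps between the periods.

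The late level was not carried by a few cells. Per 10000 UMIs of a cell, the median B2M level was 0 in each early library, 3.45 (ZZ) and 2.92 (DZ) at E21, and 9.65 (ZZ) and 5.96 (DZ) at E28. The highest single cells reached 72.5 and 63.8 per 10000 at E21, and without the highest cell of each library the late levels were still 487, 751, 883 and 605 CPM. The late sums came from fewer cells, 42 to 91 against 190 to 787 in the early libraries, at median depths of 7112 to 11040 UMIs against 6580 to 9931.

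The share of endothelial-like cells with at least 1 B2M UMI was 29.1% to 33.5% in the early libraries and 81.0% to 100% in the late ones. With every cell thinned to 2000 UMIs, which left out at most 45 cells of a library, it was 9.34% to 12.1% early and 53.1%, 54.3%, 81.0% and 70.9% late. Both scales separate the periods completely. Neuron-like cells, which express little class I, were taken as the background of free RNA, with at most 3.11% of cells unthinned and 1.60% thinned, at median depths of 3158 to 4934 UMIs. Both endothelial periods stood above it, but the E16 libraries held too few neuron-like cells to give a background. Erythroid-like cells had shares of 0.730% to 5.62% early and 2.04% to 13.9% late, thinned. The late range lay above this background, and the early range overlapped it.

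**Figure D2:**
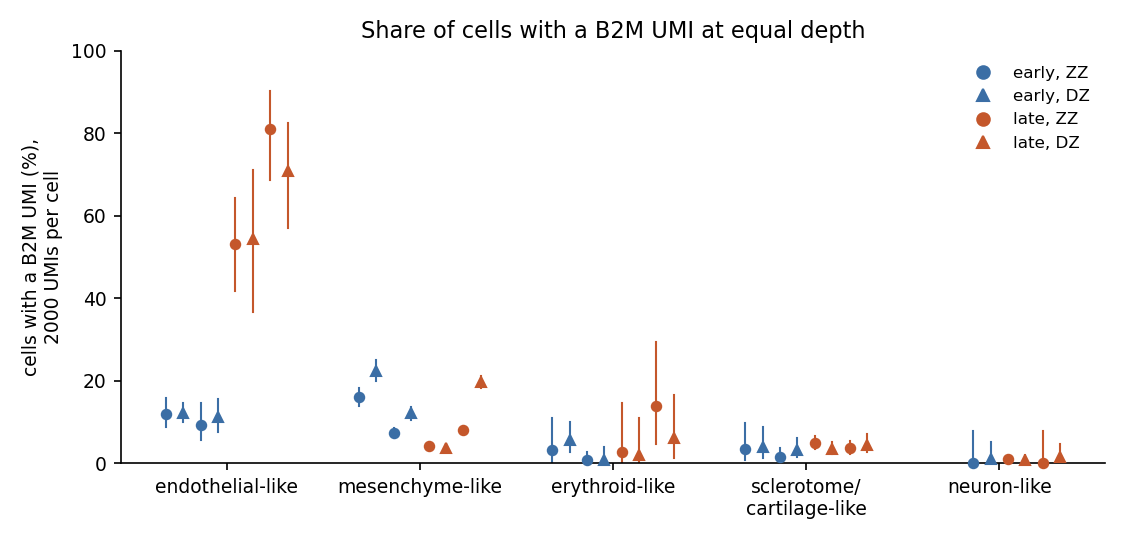
Share of cells with a B2M UMI (percent, linear axis from 0) after every cell was thinned to 2000 UMIs, in 5 classes, 1 point per library, with 95% exact binomial intervals for counting error. Late endothelial-like cells lie at 53.1% to 81.0%, early ones at 9.34% to 12.1%, and neuron-like cells at 1.60% or less.

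Of 16 endothelial marker genes, 11 were higher in late than in early endothelial-like cells without overlap, 5 overlapped and 0 were lower without overlap. Of all genes, 17.5% were higher and 10.2% lower without overlap. The 16 are the 6 gate genes and the 10 check genes. PECAM1, CLDN5 and EGFL7 are gate genes, which also selected the cells. PECAM1, an adhesion molecule of endothelial junctions, was at 477 to 595 CPM early and 750 to 1297 late, and CLDN5, a tight junction protein, at 288 to 450 and 1190 to 2675. The 5 that overlapped were EGFL7, FLT1, EMCN, KDR and TEK, an angiopoietin receptor, which was at 200.1 to 323 CPM early and 106 to 230 CPM late. The part of endothelial maturation or of purity in the B2M levels was not tested. Macrophages carry much B2M, and the 15 macrophage genes were at a summed 114 to 232 CPM in early and 171 to 219 CPM in late endothelial-like cells, against 10600 to 11330 CPM in macrophage-like cells. Between 5 and 10 of the 15 were found in a library, and C1QA, C1QC and LYZ were at 0 in all 8. Leaving out each endothelial-like cell with a macrophage gate gene UMI left B2M at 54.1 to 74.3 CPM early and 526 to 886 CPM late.

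Over the other classes, macrophage-like cells had the highest late B2M, 2998 CPM in E28-ZZ and 2088 CPM in E28-DZ, the only libraries with at least 20 such cells. Endothelial-like cells came next, followed by mesenchyme-like cells with 23.2 to 124 CPM. These 3 late ranges do not overlap. The only late epithelial-like sum, E21-ZZ with 20 cells, is not placed in this order. Erythroid-like cells (11.5 to 67.5 CPM late) and sclerotome and cartilage-like cells (18.6 to 35.1 CPM) overlapped the mesenchyme-like range and each other. Neural crest and glia-like cells reached at most 15.3 CPM, neural progenitor-like cells 9.87 CPM, paraxial mesoderm-like cells 12.6 CPM, myogenic-like cells 8.65 CPM and neuron-like cells 5.77 CPM in any library.

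The early order was another one. Epithelial-like cells were at 123 and 300 CPM at E16 and at 35.7 and 45.9 CPM at E18, mesenchyme-like cells at 76.4 to 209 CPM, and early endothelial-like cells lay below the mesenchyme-like range and inside the epithelial-like range. Cardiac-like cells were at 43.3 and 45.5 CPM at E16, with no UMI in E18-ZZ. So endothelial-like cells stood above mesenchyme-like cells late and below them early, although early mesenchyme-like cells without a HAND1 UMI, described below, were at 30.0 to 39.5 CPM, under the early endothelial-like range.

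**Figure D3:**
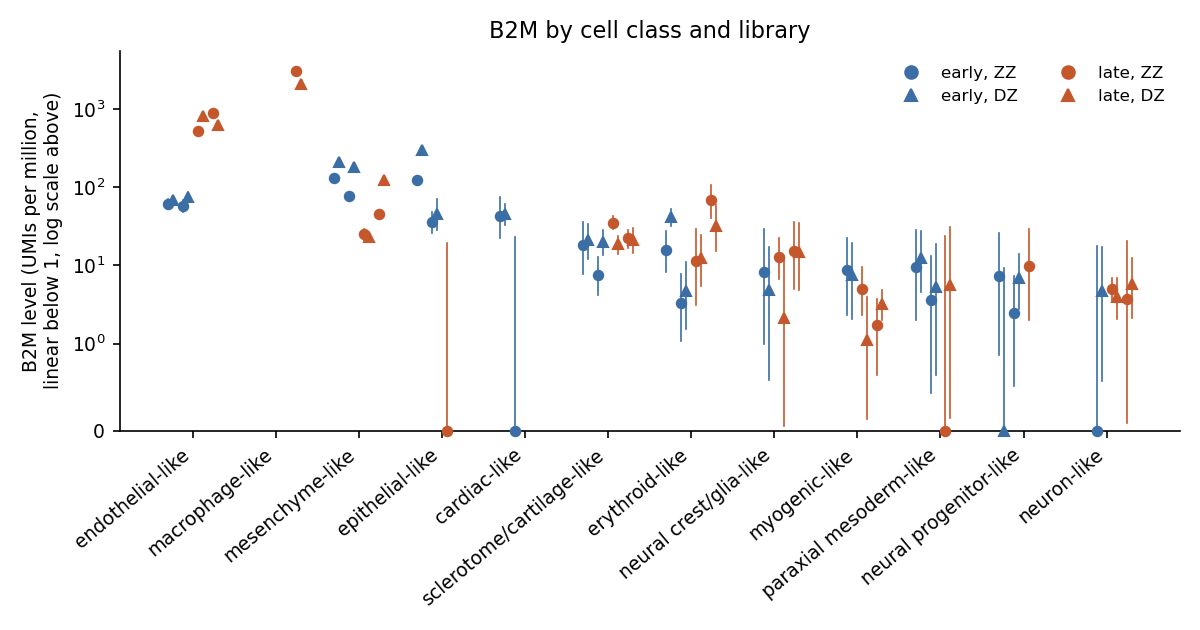
B2M level in CPM (linear below 1, log scale above) in 12 cell classes, 1 point per library with at least 20 cells of the class, blue early and red late, circles ZZ and triangles DZ, with 95% Poisson intervals. Late endothelial-like and macrophage-like sums lie above all others, and early mesenchyme-like sums (76.4 to 209 CPM) lie above early endothelial-like sums.

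Stage was tested in the 3 other classes with enough libraries, by edgeR's quasi-likelihood test on the summed counts with breed as a covariate. In mesenchyme-like cells, B2M was at 130 (ZZ) and 209 CPM (DZ) at E16, 76.4 and 179 CPM at E18, 25.01 and 23.2 CPM at E21, and 45.1 and 124 CPM at E28, with ZZ named first at each stage. The periods overlap through E28-DZ. B2M fell by 1.70 on the log2 scale (SE 0.45, edgeR adjusted p = 0.0241), in a class where 31.1% of 12397 genes passed. The call was lost on leaving out E16-ZZ (-1.47, adjusted p = 0.0678), E16-DZ (-1.64, adjusted p = 0.0684), E21-ZZ (-1.54, adjusted p = 0.0573) or E28-ZZ (-1.88, adjusted p = 0.0519), and without both E16 libraries, whose Cell Ranger version differs (-1.31, adjusted p = 0.174).

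Cells that carried HAND1, a transcription factor of lateral, extraembryonic and heart mesoderm, were mostly early, and the gene was picked after the B2M values were seen. Cells with a HAND1 UMI made up 62.5%, 66.4%, 34.3% and 28.7% of the early mesenchyme-like cells, and 1.43%, 1.74%, 0% and 0% of the late ones, where a count of 0 allows up to 0.0850% and 0.0940% at E28. In the early libraries B2M was at 177, 277, 152 and 460 CPM in cells with a HAND1 UMI and at 30.0, 39.5, 30.7 and 34.0 CPM in those without. The late cells without a HAND1 UMI were at 24.7, 23.1, 45.1 and 124 CPM, which overlaps the early range. With the HAND1 cells left out, a choice made after the values were seen, the sign turned, and the log2 difference was 0.45 (SE 0.44, edgeR adjusted p = 0.467). The part of these cells in the fall was not tested.

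**Figure D4:**
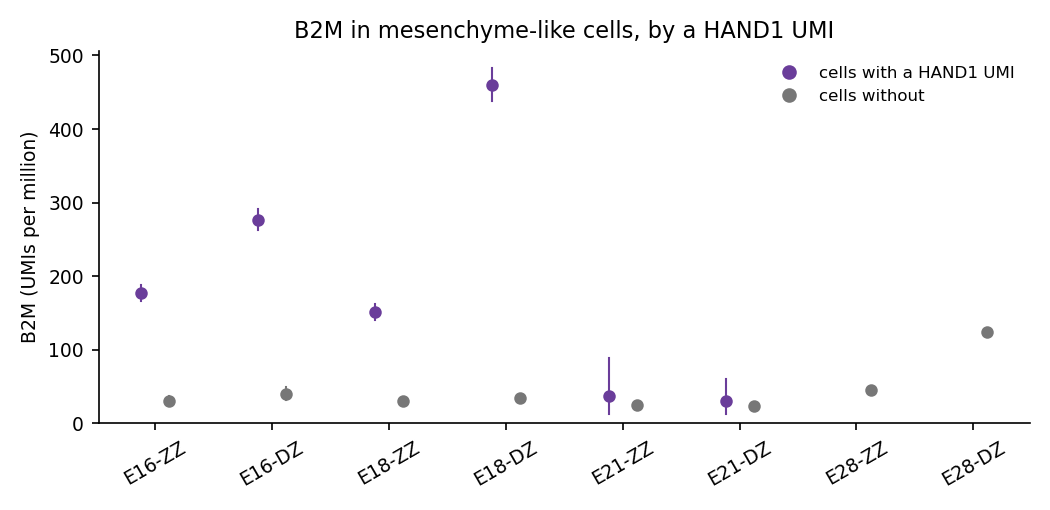
B2M in mesenchyme-like cells with a HAND1 UMI (purple) and without (grey), in CPM (linear axis from 0), for each library, with 95% Poisson intervals. Early cells with a HAND1 UMI lie at 152 to 460 CPM and those without at 30.0 to 39.5 CPM, and no late library of E28 holds a mesenchyme-like cell with a HAND1 UMI.

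Another gene that split mesenchyme-like B2M, picked after the values were seen, was RGS5, a marker of pericytes. In the early libraries the cells with an RGS5 UMI were at 202, 321, 161 and 252 CPM, against 124, 187, 64.3 and 168 CPM in the cells without. At E21 they were at 172 and 148 CPM (43 and 55 cells), against 20.9 and 19.9 CPM. At E28, with 22 and 14 such cells, the values were 79.4 and 246 CPM against 44.8 and 123 CPM, and the Poisson intervals overlap in E28-ZZ. The level was thus higher with RGS5 in all 8 libraries, by the most at E21, and these cells made up at most 2.68% of late mesenchyme-like cells.

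In erythroid-like cells, B2M was at 15.7, 41.3, 3.30 and 4.72 CPM early and 11.5, 12.5, 67.5 and 32.2 CPM late, in the same order of libraries, from 4 to 72 UMIs each. The periods overlap, and the log2 change of 1.40 (SE 0.70) did not pass (edgeR adjusted p = 0.314, with 1.05% of 3629 genes called). On leaving out 1 library it was 0.49 (without E28-ZZ) to 2.65 (without E16-DZ), with 5 to 190 genes called, and it was 0.0078 without both E28 libraries and 3.09 without both E16 libraries. In sclerotome and cartilage-like cells it was at 18.1, 21.0, 7.64 and 20.2 CPM early and 35.1, 18.6, 22.2 and 21.1 CPM late, a log2 change of 0.66 (SE 0.35) that did not pass either (edgeR adjusted p = 0.220, with 17.2% of 9387 genes called) and that was 0.20 (without E18-ZZ) to 0.84 on leaving out 1 library.

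The stage changes of these classes differed from that of mesenchyme-like cells when the difference itself was tested. For sclerotome and cartilage-like cells the difference was 2.56 on the log2 scale (SE 0.51, edgeR adjusted p = 0.00173), among 7.83% of 10773 genes called. For erythroid-like cells it was 2.96 (SE 0.70, edgeR adjusted p = 0.0207), among 2.82% called. In the erythroid contrast the median of all genes stood at -0.26, or at -0.16 with DESeq2 size factors, which also moved the split of higher and lower calls from 142 and 162 to 190 and 101. With the HAND1 cells left out of the mesenchyme-like class these differences were 0.49 (adjusted p = 0.778) and 0.87 (adjusted p = 0.604). The erythroid call was also lost without E16-ZZ (2.88, adjusted p = 0.0531), E21-DZ (3.01, adjusted p = 0.0553) or E28-ZZ (2.33, adjusted p = 0.183), and with at least 50 cells per sum (2.45, adjusted p = 0.268).

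TAP1 was low in every class. In endothelial-like cells it was at 3.098, 5.71, 6.31 and 7.59 CPM early and at 21.6, 16.4, 20.3 and 16.4 CPM late, from 8 to 34 UMIs a library. The 4 late libraries lay above the 4 early ones, with means of 18.7 ± 2.70 and 5.68 ± 1.89 CPM (SD, n = 4 each). At a mitochondrial limit of 5% the log2 of late over early was 3.601 for TAP1 in place of 1.72, 4.203 for PSMB8 in place of 3.17 and 5.39 for SLA-DQB1 in place of 2.002, from 2, 1 and 4 early and 8, 3 and 21 late UMIs that were left. Mesenchyme-like cells were at 1.81 to 5.52 CPM, and their log2 change of 0.56 with stage did not pass (SE 0.29, edgeR adjusted p = 0.164).

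Endothelial-like cells were also compared with the mean of erythroid-like, mesenchyme-like and sclerotome and cartilage-like cells, with library fitted as a blocking factor, and 52.9% of 10940 genes differed. With a mitochondrial limit of 5% per cell in place of 10%, 1951 genes differed in place of 5789. Some genes that are low in the other classes entered this test only through their endothelial sums, and had to differ to do so, among them TAP1, TAP2, PSMB8 and SLA-DQB1. For these the levels are given and no call, and the counts below hold only genes that also passed the filter in the 3 other classes alone. TAP1 was at 3.098 to 21.6 CPM in endothelial-like cells beside 1.81 to 5.52 CPM in mesenchyme-like cells. Outside this test, epithelial-like cells held 2.30 to 13.1 CPM of TAP1 early and 36.1 CPM in E21-ZZ (7 UMIs), and macrophage-like cells 18.7 and 18.8 CPM.

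PSMB8 in endothelial-like cells was at 1.03, 0.841, 1.80 and 1.20 CPM early, from 3 to 5 UMIs a library. It was at 9.61, 12.3, 16.0 and 5.96 CPM late, from 8, 6, 11 and 4 UMIs. The groups do not overlap, but 4 UMIs carry the lowest late value. Macrophage-like cells held 65.5 and 112.5 CPM. No PSMB8 UMI was found in erythroid-like cells among 6662866 UMIs, which allows up to 0.450 CPM, nor in neural progenitor-like, neural crest and glia-like, myogenic-like, paraxial mesoderm-like or cardiac-like cells. Mesenchyme-like cells were at 0 to 0.615 CPM and sclerotome and cartilage-like cells at 0 to 0.651 CPM. As stated above, no call between classes is given for it.

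NLRC5 was hardly found. There was 1 UMI in all endothelial-like cells, in E18-ZZ, of 17224890 UMIs, and 2 UMIs each in the macrophage-like cells of E28-DZ (28 cells) and of E21-DZ (13 cells). Neuron-like and mesenchyme-like cells had 2 UMIs each, myogenic-like cells 1, and the other 7 classes 0. The macrophage-like cells of E28-DZ, at 12.5 CPM (95% Poisson interval 1.51 to 45.2 CPM), lay above each mesenchyme-like library, with upper bounds of 0.264 to 0.630 CPM, while those of E28-ZZ held no UMI. Within endothelial-like cells a difference between stages was not detectable at this depth, and NLRC5 entered no test.

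SLA-DQB1, the only class II chain among the members, followed another pattern. In endothelial-like cells it was at 6.20, 11.6, 24.8 and 22.8 CPM early and at 15.6, 69.7, 144 and 32.8 CPM late, in the same order of libraries. The periods overlap, as E21-ZZ lies below both E18 libraries. Erythroid-like cells held 1 UMI of it in all. Mesenchyme-like cells were at 0.670 to 3.92 CPM, without a change with stage that passed (-0.46, SE 0.54, edgeR adjusted p = 0.536), and sclerotome and cartilage-like cells at 0 to 6.55 CPM. Macrophage-like cells held 136 and 68.8 CPM, a range that overlaps that of late endothelial-like cells.

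The highest SLA-DQB1 level of any sum with at least 20 cells was 246 CPM, in the neuron-like cells of E18-DZ, and those of E18-ZZ were at 101 CPM, below the endothelial-like and macrophage-like cells of E28-ZZ. At E21 neuron-like cells were at 12.7 and 13.3 CPM, and at E28 at 7.38 and 3.84 CPM. Thinned to 2000 UMIs, 8.89% and 25.7% of the E18 neuron-like cells held a SLA-DQB1 UMI, with exact 95% intervals of 2.48% to 21.2% and 17.7% to 35.2%, against 0% to 2.33% at E21 and E28. Unthinned, the shares were 12.5% and 31.3% against 2.07% to 4.26%. Erythroid-like cells, which should lack the gene, had 0% in every library thinned and at most 0.704% unthinned, at median depths of 3804 to 13310 UMIs.

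Neural crest and glia-like cells of E18 had SLA-DQB1 at 53.2 and 41.0 CPM (13 and 17 UMIs), and at 0 to 2.97 CPM at E21 and E28. Myogenic-like cells held no UMI in E18-ZZ, E18-DZ and E21-ZZ, where a count of 0 allows up to 7.98, 6.96 and 2.08 CPM. They were at 9.92 CPM in E21-DZ, 22.6 CPM in E28-ZZ and 7.96 CPM in E28-DZ, the last within the bound of E18-ZZ. Paraxial mesoderm-like cells were at 44.6 and 16.8 CPM at E21 (7 and 3 UMIs). No neuron-like, neural crest and glia-like or myogenic-like sums exist at E16, and these classes had too few early libraries for the test between periods. In the E18 neuron-like cells the DR alpha chain HLA-DRA had 0 and 2 UMIs, the peptide loader SLA-DMA 0 and 1, and CIITA 1 and 0, beside 21 and 104 of SLA-DQB1. No row carries the name SLA-DQA1, the DQ alpha chain, so that chain was not looked at.

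**Figure D5:**
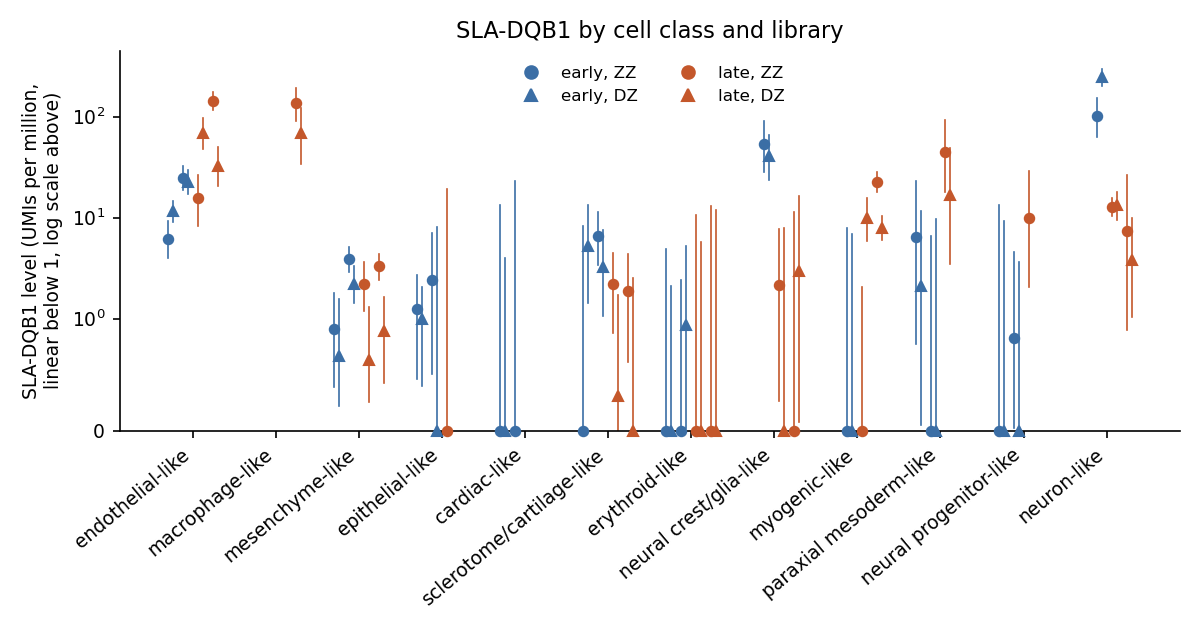
SLA-DQB1 level in CPM (linear below 1, log scale above) in 12 cell classes, 1 point per library with at least 20 cells of the class, blue early and red late, circles ZZ and triangles DZ, with 95% Poisson intervals. The E18 neuron-like sums (101 and 246 CPM) lie above the E21 and E28 neuron-like sums (3.84 to 13.3 CPM), and erythroid-like cells are at 0 in 7 of 8 libraries.

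DZ and ZZ were compared within stages, a contrast that did not choose the members, and no member passed in any class with all libraries in the fit. In myogenic-like cells the log2 difference of SLA-DQB1 was -0.35 (SE 0.72, edgeR adjusted p = 0.991), and it passed once E21-ZZ or E21-DZ, and with it the E21 pair, was left out (-1.54, SE 0.42, edgeR adjusted p = 0.0260). E21-ZZ holds no UMI of it. In endothelial-like cells, where 0.0106% of 9408 genes were called, the log2 difference of DZ over ZZ was 0.16 for B2M (SE 0.18, edgeR adjusted p = 0.871), 0.18 for TAP1 (SE 0.31, adjusted p = 0.924), -0.46 for PSMB8 (SE 0.49, adjusted p = 0.868) and 0.01 for SLA-DQB1 (SE 0.44, adjusted p = 1.00). Mesenchyme-like B2M was higher in DZ at 3 of 4 stages, by 0.83 (SE 0.20, edgeR adjusted p = 0.655), and SLA-DQB1 was lower in DZ at every stage, by -1.28 (SE 0.36, edgeR adjusted p = 0.719). In this class edgeR called 0% of 12828 genes, with 817 at an unadjusted p under 0.05, and DESeq2 called 19 genes. By chance alone, a share of about 0.05 of the genes tested would be under that unadjusted threshold. The same comparison called 0.218% of genes in erythroid-like, 0.192% in myogenic-like, 0.0852% in neuron-like and 0.0102% in sclerotome and cartilage-like cells. It called 0% of 5478 genes in neural crest and glia-like cells (309 unadjusted) and 0% of 4993 genes in paraxial mesoderm-like cells (205 unadjusted), where DESeq2 called 0 as well. Of the pathway genes listed below, IRF1, an interferon regulatory factor, was called in this comparison, higher in DZ myogenic-like cells by 3.75 (log2, SE 0.68, edgeR adjusted p = 0.0324), and DESeq2 did not call it (3.64, adjusted p = 0.596).

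Further genes of the pathway were taken from 8 lists with 107 genes, of which 85 were named in the matrices. Of the class I relatives, FCGRT, the neonatal Fc receptor heavy chain, which pairs with beta-2-microglobulin, was at 94.6 to 196 CPM in early and 400 to 607 CPM in late endothelial-like cells. It was 2.28 higher in endothelial-like cells than in the other classes (log2, SE 0.12, edgeR adjusted p = 2.93e-15). FCGRT also rose with stage elsewhere, by 1.85 in mesenchyme-like cells (SE 0.33, edgeR adjusted p = 0.00627) and by 2.83 in sclerotome and cartilage-like cells (SE 0.39, edgeR adjusted p = 0.00198). No row carries the name of a classical SLA class I heavy chain.

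In peptide loading, all 4 genes counted, CALR, CANX, PDIA3 and ERAP1, were higher in endothelial-like cells than in the other classes, where 52.9% of all genes differed in either direction. The call of CALR (0.23) was lost on leaving out any of 6 libraries and that of ERAP1, a peptide trimming protease (0.91), on leaving out any of 2. TAP2, the partner of TAP1 in the transporter, was at 0.841 to 4.51 CPM in early and 10.8 to 22.3 CPM in late endothelial-like cells, and at most 2.88 CPM in the 3 other tested classes. Of the immunoproteasome, PSMB9 was at 1.03 to 1.68 CPM early and 2.05 to 10.2 CPM late, the lowest from 1 UMI. PSMB10, the third catalytic subunit, went the other way, from 32.5 to 70.7 CPM down to 13.2 to 22.6 CPM, and it was lower in endothelial-like cells than in the other classes, by -0.84 (SE 0.13, edgeR adjusted p = 2.80e-06). PSMB10 also fell with stage in mesenchyme-like cells, by 0.97 on the log2 scale (SE 0.19, edgeR adjusted p = 0.00927), a call that was lost without the E28 libraries (-0.89, adjusted p = 0.0857) or the E16 libraries (-0.64, adjusted p = 0.0517). It also fell in sclerotome and cartilage-like cells, by 0.68 (SE 0.15, edgeR adjusted p = 0.0133), and this call was lost without E18-ZZ (-0.67, adjusted p = 0.0565), without the E16 libraries (-0.59, adjusted p = 0.0920), at a mitochondrial limit of 5% (-0.52, adjusted p = 0.0870) and with embryonic day as a number (-0.63, adjusted p = 0.0585). With a mitochondrial limit of 5% the endothelial difference of PSMB10 was -0.63 and did not pass (adjusted p = 0.146). In the constitutive core, 1 of 12 genes was higher and 3 were lower in endothelial-like cells than in the other classes, with a median of -0.03, against -0.0043 over all genes tested. Between late and early endothelial-like cells the core had a median log2 ratio of -0.31, against 0.13 over all genes, and all 12 overlapped between the periods. Of the other lists, endothelial-like cells were higher for 4 and lower for 1 of 12 regulators, higher for 2 of 8 interferon ligands, receptors and kinases, and higher for 2 and lower for 1 of 8 interferon-stimulated genes, beside 52.9% of all genes, which include those that entered only through their endothelial sums. The largest log2 differences that passed were 1.70 for NFKB1 and 1.54 for IRF2 among the regulators, with RFXANK lower (-0.20), 0.75 for JAK1 and 0.60 for IFNAR1 among receptors and kinases, and 1.73 for IFI44L and 1.60 for IFI6 among the stimulated genes, with MX1 lower (-1.75). IFI6 turned to -0.26 at a mitochondrial limit of 5%, and its call was lost with at least 50 cells per sum (1.04, adjusted p = 0.0684). On leaving out 1 library the call of MX1 was lost for 3 libraries, that of RFXANK for 2 and that of IFNAR1 without E28-DZ (0.46, adjusted p = 0.0548). PSME2, a subunit of the proteasome activator, was higher by 0.79, and in the core PSMA6 was higher by 0.21 and PSMB7, PSMA3 and PSMB4 lower (-0.39, -0.26 and -0.22), the call of PSMB4 being lost without E21-ZZ or E28-ZZ. The edgeR adjusted p of these genes was 0.0259 or less. PROCR, the endothelial protein C receptor and a relative of class I, was at 12.4 to 53.7 CPM in endothelial-like cells, at most 4.08 CPM in the other tested classes and 0 in erythroid-like cells.

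Of the 3 class II genes counted, SLA-DMB and LGMN were higher in endothelial-like cells than in the other classes and CTSL, a lysosomal protease, was lower, beside 52.9% of all genes. The call of CTSL was lost without E16-DZ or E18-ZZ. SLA-DMB, a chain of the class II peptide editor, was at 11.6 to 39.2 CPM early and 16.8 to 76.9 CPM late, and 3.05 higher than in the other classes (log2, SE 0.30, edgeR adjusted p = 1.10e-09, and 2.77 to 4.66 on leaving out 1 library, the highest without E18-DZ). SLA-DMA, its partner, was at 2.84 to 8.12 CPM early and 2.40 to 29.0 CPM late. HLA-DRA, as the matrices name the DR alpha chain, was at 0.516 to 4.06 CPM early and 3.61 to 21.8 CPM late. CIITA was at 1.29 to 15.3 CPM early and 4.81 to 20.3 CPM late. All 4 overlap between the periods, and of the 4 class II genes that passed the filter within endothelial-like cells, 0 were separate between the periods, beside 17.5% of all genes higher and 10.2% lower. Of the other SLA rows, SLA-DOA was at 0.258 to 2.80 CPM early and 0 to 6.15 CPM late, and HLA-DOB had 1 UMI in all endothelial-like cells. In early epithelial-like cells HLA-DOB was at 3.695 to 17.5 CPM.

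Of the interferon receptors and kinases, 3 of 7 that passed the filter were higher without overlap in late endothelial-like cells, beside 17.5% of all genes, namely IFNAR1 (21.7 to 37.5 CPM early, 76.9 to 128 CPM late), IFNAR2 and JAK1. Of the interferon-stimulated genes, 2 of 7 were, namely IFI6, at 22.0 to 37.8 CPM early and 40.2 to 325 CPM late, and IFI44L, at 5.16 to 7.59 and 12.0 to 39.2 CPM. IFI44L passed the filter only with its late sums, as did some genes within the 17.5%, so nothing is read from its separation. The medians of the receptor and kinase list and of the stimulated genes, as log2 of late over early, were 1.12 and 0.06, against 0.13 over all genes. Among the regulators, 2 of 13, IRF2 and CREB1, were higher late without overlap, close to the share of all genes. IFI44, MX2, OAS2, IFNGR2, IRF8, IFI30 and PSMB9 were also higher late without overlap, with late levels of 1.49 to 17.4 CPM. They did not pass the filter and are in none of these counts. Some of the lowest late values, 1.49 CPM for MX2 and 2.05 CPM for IFNGR2 and PSMB9, lie under 3 UMIs of a late library (3.61 to 6.15 CPM). The share of all genes below the filter that separate in this way was not counted, so nothing is read from these genes.

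In mesenchyme-like cells the interferon-stimulated genes went down with stage in 4 of 12 cases and up in 1, where 31.1% of all genes changed in either direction. ISG15, a ubiquitin-like protein, fell by 4.51 on the log2 scale (SE 0.68, edgeR adjusted p = 0.00411), from 19.4 to 156 CPM early down to 1.96 to 5.97 CPM late. MX1, an antiviral GTPase, fell by 2.07 (SE 0.31, edgeR adjusted p = 0.00418). Both calls held without the HAND1 cells and on leaving out any 1 library. JAK1 rose by 1.81 (SE 0.29, edgeR adjusted p = 0.00512), and in sclerotome and cartilage-like cells by 1.60 (SE 0.34, edgeR adjusted p = 0.0113). In the latter class IFITM3, a membrane protein that restricts virus entry, rose by 2.30 (SE 0.34, edgeR adjusted p = 0.00263). It was the only 1 of 4 interferon-stimulated genes to pass, beside 17.2% of all genes in that class.

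Further list genes passed with stage in mesenchyme-like cells, where 31.1% of all genes did. In class II processing, 2 of 6 genes fell, CTSL by 1.93 and LGMN, an endosomal protease, by 0.87 on the log2 scale. CANX, a chaperone of class I heavy chains, fell by 0.88, as the only 1 of 6 peptide loading genes. The proteasome activator genes PSME1 and PSME2 rose by 0.72 and 0.57, and 4 of 12 core genes fell, PSMA5 by 0.75, PSMA1 by 0.55 and PSMA6 by 0.47 the most. Of 14 regulators 4 rose, IRF2 (1.34), STAT2 (0.86) and CREB1 (0.62) among them, and RFXANK fell by 0.84 and NFKB1 by 0.75. SOCS1, a feedback inhibitor of cytokine signals, fell by 2.16 and IFNGR1, a chain of the interferon gamma receptor, by 1.84. IFIT1 fell by 2.87 and IFIT5 rose by 0.66. The edgeR adjusted p of these genes was 0.00609 to 0.0425. On leaving out 1 library the calls of CTSL, IRF2, RFXANK and NFKB1 held, and the others were lost for 3 to 6 of the 8 libraries.

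In sclerotome and cartilage-like cells, where 17.2% of all genes passed, CTSL fell by 4.25 on the log2 scale, from 8.19 to 47.6 CPM early down to 0.679 to 1.55 CPM late (SE 0.70, edgeR adjusted p = 0.00394). IFNGR1 rose by 1.83, from 1.31 to 5.86 CPM up to 9.41 to 17.0 CPM (SE 0.37, edgeR adjusted p = 0.0100). Both calls held on leaving out any 1 library. PSME1 rose by 0.90, RFXANK fell by 0.53 and PSMA4 by 0.53 (edgeR adjusted p of 0.0172 to 0.0266), and their calls were lost for 3, 2 and 6 of the 8 libraries left out.

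The stage change of IFNGR1 differed between sclerotome and cartilage-like and mesenchyme-like cells by 3.26 on the log2 scale (SE 0.44, edgeR adjusted p = 2.79e-05), and by 1.85 without the HAND1 cells, where it did not pass (adjusted p = 0.0502). In the same test SOCS1 (2.56), IFITM3 (1.19) and FCGRT (0.85) had higher differences and PSME2 a lower one (-0.56), with edgeR adjusted p of 0.000929 to 0.0404. The call of PSME2 was lost for 6 of the 8 libraries left out and that of IFITM3 without E18-DZ (0.93, adjusted p = 0.0942), and without the HAND1 cells all 4 were lost. IFNGR2 passed as well, but early sclerotome and cartilage-like cells hold no UMI of it, so its fitted size is not given. For erythroid-like cells ISG15 (3.90) and MX1 (2.74) had higher and JAK1 (-1.38) and PSMB2 (-0.83) lower differences, with edgeR adjusted p of 0.0132 to 0.0399. On leaving out 1 library the calls of MX1 and PSMB2 were lost for 5 libraries each, that of ISG15 without E28-ZZ (1.67, adjusted p = 0.498) and that of JAK1 without E21-DZ (-1.26, adjusted p = 0.0629).

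Among 8080 genes with a mean of at least 10 CPM, those whose log2(CPM + 1) was most like that of B2M over the 71 sums of class and library were CXCL2 (Pearson's r = 0.77), BST2 (0.76), SGK1 (0.75), TGFB1 (0.74) and the row ENSSSCG00000001229 (0.74), for which neither the matrices nor the reference table give a name. These sums share libraries and include the endothelial-like sums on which B2M was chosen. The values are therefore a description, and the late endothelial levels of these genes are not independent of that choice. CXCL2, a neutrophil chemokine, had a mean of 1.55 CPM in early and 43.0 CPM in late endothelial-like cells. It was at 136 and 369 CPM in macrophage-like cells and at most 7.39 CPM in any other class. BST2, an interferon-induced membrane protein also called tetherin, did not share the late level, with means of 33.6 and 25.3 CPM. ENSSSCG00000001229 did, at 11.4, 31.9, 47.8 and 51.9 CPM in the early and 300.4, 502, 181 and 323 CPM in the late endothelial-like libraries, and it was at 1567 and 969 CPM in macrophage-like cells. Of the members, which were compared whatever their mean level, PSMB8 was most like B2M (r = 0.72), then TAP1 (0.53), NLRC5 (0.29) and SLA-DQB1 (0.24). NLRC5 had at most 2 UMIs in any of these sums and PSMB8 none in many of them, so nothing is read from this order.

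In single cells, whether the members were found together could not be read apart from depth, since cells with more UMIs hold more of every gene. Of 249 late endothelial-like cells 226 held a B2M UMI, as did 43 of 45 cells with TAP1, 24 of 24 with PSMB8 and 64 of 65 with SLA-DQB1, which are close to the share of all late cells. Of 1606 early endothelial-like cells 489 held a B2M UMI, and 44 of 73 cells with TAP1, 10 of 14 with PSMB8 and 72 of 140 with SLA-DQB1 did.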

How the data were processed

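The authors made 10x Chromium libraries and deposited UMI counts from Cell Ranger (3.1.0 for the 2 E16 libraries, 3.0.2 for the other 6, per the file headers), aligned to Sscrofa11.1 with an Ensembl annotation, filtered to barcodes called as cells and not normalized. E16 is tied to the Cell Ranger version and E28 to the tissue.

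Barcodes with fewer than 200 genes, over 30000 UMIs or over 10% mitochondrial UMIs were removed, then 8247 barcodes with the highest Scrublet doublet scores (scanpy 1.11.5), at 0.8% per 1000 barcodes. Counts were summed per gated class and library, with at least 20 cells, and given as CPM of the sum. Tests used edgeR 4.0.16 (R 4.3.3; quasi-likelihood, TMM, filterByExpr, Benjamini-Hochberg at 0.05 over all genes tested), with libraries as replicates; p-values measure the spread between these pools. SE is the absolute log2 change over the root of F. DESeq2 1.42.0, other filters and leaving out libraries were alternatives. The fits were tested on simulated data. Thinned shares are the expected number of cells that keep a UMI, rounded. Intervals cover counting error only.

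The members and lists were chosen with earlier results of these data known. Named were the members, list genes that passed (at most 3 per direction, list and comparison), SLA genes found, and the 5 genes most like B2M. RGS5, HAND1 and the endothelial markers were added to these. Promoters and coding sequences are from RefSeq; rows were named by the matrices, with 680 more from the reference name table, which was not used for members. Of the listed genes, 1 is not reported here by name.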

Additional observations from a re-analysis of the deposited data

Results flagged for a closer look

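In B2M, the change from early to late libraries differed between cell classes by a test of the difference itself. Against mesenchyme-like cells the difference was 2.96 on the log2 scale in erythroid-like cells and 2.56 in sclerotome and cartilage-like cells, and both lost their call once mesenchyme-like cells with a HAND1 UMI were left out. No library stood apart by the gap criterion in 27 groups of 4 libraries with at least 20 UMIs, where chance would mark about 1 in 20.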

How the results depend on the processing

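The labels give no replicate numbers to pair by. The comparison of breeds pairs the ZZ and DZ library of each stage with stage as a block, and that of classes has the library as a block. The late rise of B2M in endothelial-like cells ranged from 2.54 to 3.57 (log2 of late over early) over 18 alternatives, the lowest being the thinned share of cells with a UMI, 2.54, which is bounded at 100%. The mesenchyme-like change of B2M was -1.12 per 10 days with embryonic day as a number (adjusted p = 0.197), -1.31 without the E16 libraries and 0.45 without cells with a HAND1 UMI, and leaving out 1 library gave -2.27 to -1.42. The erythroid difference was 2.45 at 50 or more cells and 0.87 without HAND1 cells, with 2.33 to 3.86 on leaving out 1 library, and the sclerotome difference was 0.49 without HAND1 cells.

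Uncalled breed differences changed sign. In endothelial-like cells, B2M was -0.039 and SLA-DQB1 -0.46 at 50 or more cells. On leaving out 1 library, the endothelial range was -0.039 to 0.43 for B2M, -0.46 to 0.80 for SLA-DQB1 and -0.091 to 0.34 for TAP1. For B2M it was -0.39 to 1.12 in erythroid-like, -0.15 to 0.50 in myogenic-like and -0.42 to 0.38 in sclerotome and cartilage-like cells, and for SLA-DQB1 in neuron-like cells -0.064 to 1.05. DESeq2 gave 0.83 for SLA-DQB1 in myogenic-like and 0.055 for B2M in sclerotome and cartilage-like cells, and with no doublets removed SLA-DQB1 was 0.043 in neural crest and glia-like cells. SLA-DQB1 with stage in mesenchyme-like cells was -0.86 to 0.0074 on leaving out 1 library. At a mitochondrial limit of 5%, IFI6 and RELA turned to -0.26 and -0.25 in endothelial-like against other classes. The cause was not tested. With at least 50 cells per sum, too few libraries were left for erythroid-like cells between periods and for erythroid-like, neural crest and glia-like, neuron-like and paraxial mesoderm-like cells between breeds, as at the limit of 5% between breeds for endothelial-like, myogenic-like, neural crest and glia-like and paraxial mesoderm-like cells.

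Over the alternatives, the number of genes called between the periods ranged from 1 to 304 in erythroid-like (38 as given), 839 to 4530 in mesenchyme-like (3853) and 298 to 2479 in sclerotome and cartilage-like cells (1615), the fewest without the E28 or E16 libraries. The differences called ranged from 79 to 431 (304) and 525 to 1236 (843), and the endothelial calls from 1951 to 6010 (5789). Between breeds, calls ranged from 0 to 132 in endothelial-like, 1 to 30 in erythroid-like, 0 to 19 in mesenchyme-like, 11 to 102 in myogenic-like, 0 to 20 in neural crest and glia-like, 0 to 32 in neuron-like, 0 to 3 in paraxial mesoderm-like and 0 to 106 in sclerotome and cartilage-like cells.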
